A study of Mus musculus with 4 samples.

Results

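Inhibitory receptors are the brakes of myeloid cells. This account follows 10 of them, Sirpa, Siglece, Siglecf, Siglec1, Cd33, Lilrb4a, Pilra, Lair1, Cd300a and Cd200r1. The receptors were taken as a set by name, with earlier results of these data known, and matched to the table by gene symbol. They are 10 of the 52550 genes listed. Transcripts were measured by RNA-seq in macrophages grown from mouse bone marrow, labelled as OGT knockout or wild type (WT). OGT places single N-acetylglucosamine sugars on serines and threonines of proteins inside the cell. Both genotypes were cultured for 7 days with M-CSF at 20 ng/ml, the growth factor that turns marrow cells into macrophages. The 4 groups were knockout cells after 24 h of IL-4, knockout cells at 0 h, WT cells after 24 h of IL-4 and WT cells at 0 h. IL-4 was used at 20 ng/ml to drive the alternative (M2) state. The 0 h samples bear the IL-4 tag as well and are taken by their time as unstimulated. The sources used here give neither the way Ogt was deleted, nor the deleted part, nor the age and strain of the mice.

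Many of these receptors carry short tyrosine motifs in their tails, called ITIMs. Once phosphorylated, an ITIM recruits the phosphatases SHP-1, SHP-2 or SHIP-1, which damp signals from activating receptors nearby. SIRPα, encoded by Sirpa, binds CD47 on other cells and restrains phagocytosis, the "don't eat me" signal. Siglecs bind sialic acid on glycans and so read the host's own sugar coat. Several of the families are paired: an inhibitory member has close relatives that signal the opposite way through the adaptor DAP12. CD200R1 has no ITIM and works through the adaptors DOK1 and DOK2. The product of Siglec1 has no ITIM either, and the gene is followed here as part of the named set.

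Each group held 1 library, so no difference can be set against the spread between cultures and no test is given. No group was kept for 24 h without IL-4, so an effect of IL-4 and one of time in culture cannot be told apart. Values are FPKM, fragments scaled by transcript length and library size, as the authors deposited them. A step that recurs in the values of genes with 1 exon puts the depth at an estimated 40.02 to 43.8 fragments for a 2 kb transcript at 1 FPKM. Ogt stood at 14.5 FPKM in knockout cells and 29.8 FPKM in WT cells at 24 h, and at 14.2 FPKM in knockout cells and 27.4 FPKM in WT cells at 0 h. The knockout level was thus 48.5% of WT at 24 h and 51.8% at 0 h. The 8 macrophage markers, among them Adgre1, Csf1r, Cd68, Fcgr1 and Lyz2, were all present in every library. T cell markers were at or near 0, with a summed level of at most 0.754 FPKM in any library.

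Promoter sequence was at hand for 6 of the 10 genes (RefSeq, GRCm38.p6), namely Pilra, Lair1, Siglecf, Cd33, Siglece and Cd300a. Among the 15 pairs of these promoters, Siglecf and Cd33 shared the longest identical run, of 16 bases. Both encode sialic acid receptors and lie on chromosome 7. So does Siglece, whose longest run was 8 bases with Cd33 and 10 with Siglecf. The Siglecf and Cd33 promoters are shown because these genes, both low in level, differed in direction after IL-4 in knockout cells. In WT cells they did not, as described further on. The capitals mark the shared run, which occurs in 2 of 32851 promoters of the same length.
Siglecf, chr7:43351241-43351340, + strand: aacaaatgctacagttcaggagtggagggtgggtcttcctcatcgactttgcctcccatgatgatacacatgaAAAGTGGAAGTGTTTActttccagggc
Cd33, chr7:43533272-43533371, − strand: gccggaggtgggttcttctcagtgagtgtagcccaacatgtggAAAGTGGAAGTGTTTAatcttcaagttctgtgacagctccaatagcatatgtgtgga
The Siglecf stretch ends at the base before its annotated start. The Cd33 stretch lies further upstream of the RefSeq start used for its promoter. It lies inside the Cd33 gene span given further on, 43524216 to 43544428, so it is not upstream of the whole annotated gene.

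Siglece and Pilra are shown next, because their differences after IL-4 were the largest among the 6 genes with a promoter at hand. In Siglece the capitals mark 3 matches to GAGGAA, the core letters bound by PU.1 and other ETS factors, searched on both strands. In Pilra they mark 1 match to GAGGAA and 1 to GAAA, any 2 bases, GAAA, the letters of an interferon response element.
Siglece, chr7:43660162-43660261, − strand: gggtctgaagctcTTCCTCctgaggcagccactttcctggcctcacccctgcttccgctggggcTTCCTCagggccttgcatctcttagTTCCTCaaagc
Pilra, chr5:137836439-137836498, − strand: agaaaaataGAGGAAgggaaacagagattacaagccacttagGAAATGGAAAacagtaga
GAGGAA was found in all 6 promoters, at least once in each, and in 28.3% of all promoters. The interferon-type letters were found in Pilra alone of the 6, and in 3.44% of all promoters. The STAT6-type letters, TTC and GAA with 4 bases between them, were found in Lair1 alone, 81 bases before its start, and in 6.95% of all promoters. The same letters with 3 bases between them, the spacing of other STAT factors, were in none of the 6 and in 8.30% of all. TGTGGT, the RUNX core, was in Pilra, Siglecf and Cd33 and in 16.8% of all. These are matches of letters within 300 bases, and binding was not measured.

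The levels of the 10 transcripts spanned a wide range, which the plot of levels by library shows. Sirpa was the highest of the 10 in every library. Its share of their summed FPKM was 28.6% in knockout cells at 24 h, 51.1% in knockout cells at 0 h, 54.8% in WT cells at 24 h and 54.7% in WT cells at 0 h. At 0 h the order behind it was Cd300a, then Siglec1, then Lilrb4a and Cd200r1, which changed places between genotypes. At 24 h the order behind Sirpa was Cd200r1, Lilrb4a, Cd300a, Siglec1 and Lair1 in both genotypes. The lowest 4 at 24 h were Pilra, Siglecf, Cd33 and Siglece, all under 2 FPKM in both genotypes. With 1 library each, neighbours in this order that differ by little, such as Pilra and Lair1 at 0 h, cannot be ranked with confidence.

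**Figure D1:**
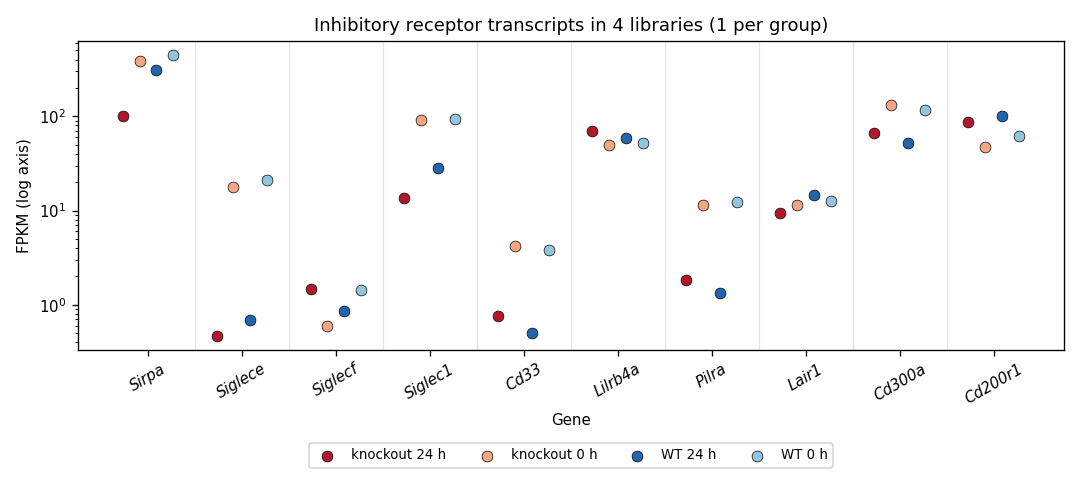
Level of each receptor gene in FPKM on a log axis, with 1 point per library for knockout 24 h, knockout 0 h, WT 24 h and WT 0 h, so there are no error bars. Sirpa sits highest in each library, and Sirpa, Siglece, Cd33, Pilra, Siglec1 and Cd300a are lower at 24 h than at 0 h in both genotypes.

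After 24 h of IL-4, 5 of the 10 receptors were at least 2-fold lower in knockout cells and 5 were in WT cells, and none was 2-fold higher in either. Siglece, Siglec1, Cd33 and Pilra were lower by that measure in both genotypes, Sirpa in the knockout alone and Cd300a in WT alone. Among all genes, 5.99% were 2-fold lower in the knockout and 6.26% in WT, while 5.16% were 2-fold higher in the knockout and 4.76% in WT. Differences are log2 ratios of FPKM + 1, and a gene counts as 2-fold different at 1 or more on that scale if it reached 1 FPKM in either library. The median difference of the 10 was −1.27 in the knockout and −0.84 in WT, against 0.03 in the knockout and 0.02 in WT over all genes kept. All 10 were kept in both comparisons. The receptors were chosen with earlier results of these data known, so their counts are not an independent measure against all genes. In bulk RNA, fewer cells of a type and less RNA per cell cannot be told apart.

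Siglece (ENSMUSG00000030474, chromosome 7, 43651070 to 43660161, − strand, GRCm38) had the largest differences of the 10. It encodes Siglec-E, an ITIM-bearing Siglec of mouse neutrophils, monocytes and macrophages. It stood at 0.468 FPKM in knockout cells at 24 h against 17.9 FPKM in knockout cells at 0 h. In WT cells it stood at 0.687 FPKM at 24 h against 21.1 FPKM at 0 h. Both 24 h libraries were far below both 0 h libraries, and the log2 difference was −3.69 in the knockout and −3.71 in WT. At 24 h these levels correspond to about 18 fragments in the knockout and 27 in WT, so the exact fold rests on few fragments.

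Pilra (ENSMUSG00000046245, chromosome 5, 137821952 to 137836281, − strand) encodes the inhibitory member of the paired immunoglobulin-like type 2 receptors, which bind certain sialylated O-glycosylated proteins. It was measured at 1.85 FPKM in knockout cells at 24 h against 11.5 FPKM at 0 h. In WT cells it was at 1.32 FPKM at 24 h against 12.2 FPKM at 0 h. The 24 h libraries were again the lower ones in both genotypes, with log2 differences of −2.13 in the knockout and −2.51 in WT. Exons of Zcwpw1 on the other strand cover 15.1% of the Pilra exon bases. That gene was at 1.10 FPKM in knockout cells and 0.259 FPKM in WT cells at 24 h, and the strandedness of the counting is not given, so the low 24 h values of Pilra are less certain.

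Siglec1 (ENSMUSG00000027322, chromosome 2, 131069220 to 131086765, − strand) encodes sialoadhesin or CD169, a macrophage Siglec with a long extracellular part and no ITIM. It is known as an interferon-induced gene. It was at 13.6 FPKM in knockout cells at 24 h against 90.8 FPKM at 0 h. In WT cells it was at 28.1 FPKM at 24 h against 93.3 FPKM at 0 h. The 0 h libraries were close together, the 24 h libraries were lower in both genotypes, and the knockout 24 h library was the lowest. The log2 difference was −2.66 in the knockout and −1.70 in WT.

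Cd33 (ENSMUSG00000004609, chromosome 7, 43524216 to 43544428, − strand) encodes Siglec-3, whose mouse form differs from the human one in its signalling tail. It was at 0.763 FPKM in knockout cells at 24 h against 4.17 FPKM at 0 h, and at 0.496 FPKM in WT cells at 24 h against 3.79 FPKM at 0 h. The log2 differences were −1.55 in the knockout and −1.68 in WT. Cd33 lies low enough for the pseudocount to matter, and with a pseudocount of 5 they came to −0.67 in the knockout and −0.68 in WT.

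Siglecf (ENSMUSG00000039013, chromosome 7, 43351341 to 43359531, + strand), whose promoter shares the 16-base run with Cd33, did not follow it in the knockout. It encodes Siglec-F, best known on mouse eosinophils and alveolar macrophages. It was at 1.49 FPKM in knockout cells at 24 h against 0.600 FPKM at 0 h, and at 0.862 FPKM in WT cells at 24 h against 1.44 FPKM at 0 h. The signs thus differed between genotypes, with log2 differences of 0.64 in the knockout and −0.39 in WT, neither of them 2-fold on the FPKM + 1 scale. Without the added 1, the knockout ratio of 24 h to 0 h was 2.48. In WT Siglecf was lower at 24 h, as Cd33 was. The values amount to about 31 to 82 fragments per library. The summed level of 5 eosinophil markers was 9.06 FPKM in knockout cells at 24 h, 16.8 FPKM in knockout cells at 0 h, 15.1 FPKM in WT cells at 24 h and 34.5 FPKM in WT cells at 0 h. Prg2 made up most of the 0 h sums and was at 4.63 FPKM in knockout cells at 24 h against 13.3 FPKM at 0 h, and at 6.10 FPKM in WT cells at 24 h against 27.7 FPKM at 0 h. Ccr3 went the other way, at 4.21 FPKM in knockout cells at 24 h against 2.40 FPKM at 0 h, and at 8.54 FPKM in WT cells at 24 h against 4.56 FPKM at 0 h. Prg3 was at most 1.88 FPKM, Epx at most 0.329 FPKM and Il5ra at most 0.0140 FPKM, and the part of such cells in the Siglecf values was not tested.

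The 4 Siglec genes together summed to 16.3 FPKM in knockout cells at 24 h against 113.5 FPKM at 0 h, and to 30.1 FPKM in WT cells at 24 h against 119.6 FPKM at 0 h. Most of each sum was Siglec1. A list of genes for making, attaching and removing sialic acid, the ligand of Siglecs, showed little of this. The shares of all genes past 2-fold were 5.16% higher and 5.99% lower in the knockout, and 4.76% higher and 6.26% lower in WT. Of the 36 listed genes, 22 were kept, 1 was 2-fold higher and 0 were 2-fold lower in the knockout, while 1 was higher and 1 lower in WT. The higher one was St8sia1, a sialyltransferase of gangliosides, at 1.58 FPKM in knockout cells at 24 h against 0.0718 FPKM at 0 h, and at 1.13 FPKM in WT cells at 24 h against 0.0591 FPKM at 0 h. The lower one in WT was Cmah, which hydroxylates the sialic acid donor, at 0.144 FPKM at 24 h against 1.42 FPKM at 0 h. Both were picked out after their values were seen, and with a pseudocount of 5 or a filter at 5 FPKM neither passed 2-fold. Gne, the first enzyme of sialic acid synthesis, which starts from UDP-N-acetylglucosamine, was at 1.85 FPKM in knockout cells at 24 h against 1.53 FPKM at 0 h, and at 2.21 FPKM in WT cells at 24 h against 2.22 FPKM at 0 h.

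Cd300a (ENSMUSG00000034652, chromosome 11, 114890041 to 114904654, + strand) encodes an ITIM receptor for phosphatidylserine and phosphatidylethanolamine on dying cells. It was at 66.6 FPKM in knockout cells at 24 h against 133 FPKM at 0 h, and at 52.4 FPKM in WT cells at 24 h against 117 FPKM at 0 h. The log2 difference was −0.99 in the knockout and −1.14 in WT, so the 2-fold line falls between the genotypes although the values are close. With libraries rescaled by their median ratio the knockout value was −1.05.

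Cd200r1, Lilrb4a and Lair1 stayed within 2-fold in both genotypes. Cd200r1 (ENSMUSG00000022667, chromosome 16, 44765736 to 44794978, + strand) encodes the receptor of CD200. It was at 87.3 FPKM in knockout cells at 24 h against 47.5 FPKM at 0 h, and at 99.8 FPKM in WT cells at 24 h against 61.2 FPKM at 0 h. Both 24 h libraries were above both 0 h libraries, with log2 differences of 0.86 in the knockout and 0.70 in WT, under 2-fold. Its ligand gene Cd200 was low, at 0.781 FPKM in knockout cells at 24 h against 1.95 FPKM at 0 h, and at 1.12 FPKM in WT cells at 24 h against 3.92 FPKM at 0 h. The adaptor gene Dok2, through which CD200R1 signals, was at 159 FPKM in knockout cells at 24 h against 24.6 FPKM at 0 h, and at 126 FPKM in WT cells at 24 h against 18.0 FPKM at 0 h. That is a log2 difference of 2.64 in the knockout and 2.74 in WT. Dok1 was within 2-fold, at −0.35 in the knockout and −0.39 in WT.

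Lilrb4a (ENSMUSG00000112148, chromosome 10, 51490956 to 51496611, + strand) encodes gp49B, an ITIM receptor for which fibronectin is a known ligand. It was at 69.2 FPKM in knockout cells at 24 h against 50.04 FPKM at 0 h, and at 59.4 FPKM in WT cells at 24 h against 51.6 FPKM at 0 h. The log2 differences were 0.46 in the knockout and 0.20 in WT. Its value is uncertain, because the annotated gene Gm49339 covers 35.3% of its exon bases on the same strand, and its neighbour Lilr4b is a close relative. Lilrb4a and Gm49339 together were at 146 FPKM in knockout cells at 24 h against 99.2 FPKM at 0 h, and at 130.4 FPKM in WT cells at 24 h against 105.9 FPKM at 0 h. Fn1, which encodes fibronectin, was at 189 FPKM in knockout cells at 24 h against 7.58 FPKM at 0 h, and at 96.9 FPKM in WT cells at 24 h against 9.40 FPKM at 0 h.

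Lair1 (ENSMUSG00000055541, chromosome 7, 4003402 to 4063204, − strand) encodes the ITIM receptor of collagens and of the complement protein C1q. It was at 9.33 FPKM in knockout cells at 24 h against 11.3 FPKM at 0 h, and at 14.6 FPKM in WT cells at 24 h against 12.6 FPKM at 0 h. The log2 difference was −0.26 in the knockout and 0.20 in WT, so the signs differed at sizes well under 2-fold.

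**Figure D2:**
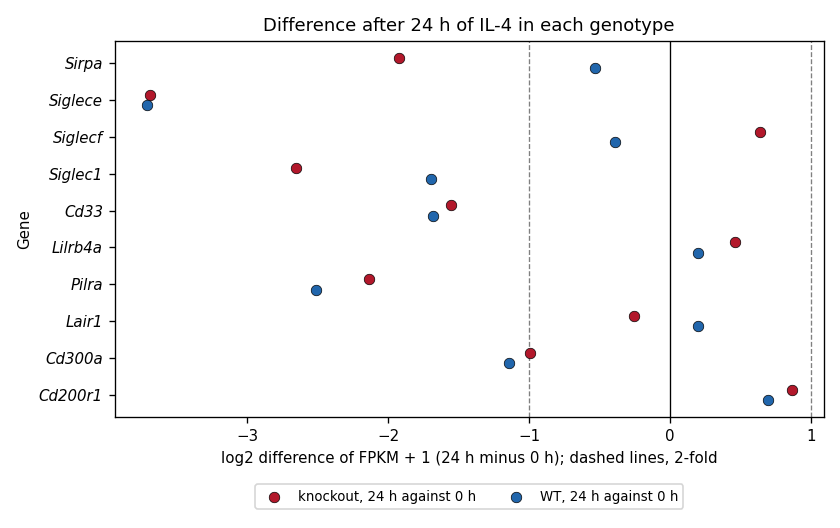
Log2 difference of FPKM + 1 between 24 h and 0 h for each receptor gene, with the knockout point above the WT point and dashed lines at 2-fold. Siglece, Pilra, Cd33 and Siglec1 lie left of the 2-fold line in both genotypes, and Sirpa is at −1.92 in the knockout and −0.53 in WT.

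Sirpa (ENSMUSG00000037902, chromosome 2, 129592835 to 129632228, + strand) differed most between the genotypes. It was at 100.5 FPKM in knockout cells at 24 h against 383 FPKM at 0 h, a log2 difference of −1.92. In WT cells it was at 312 FPKM at 24 h against 452 FPKM at 0 h, a log2 difference of −0.53. The knockout 24 h library was thus apart from the other libraries, which lay within 1.45-fold of each other. In rank among all genes Sirpa was 447th in knockout cells at 24 h, 94th in knockout cells at 0 h, 134th in WT cells at 24 h and 78th in WT cells at 0 h. No other gene with a deposited value lies within 20 kb of Sirpa. The gene of its ligand, Cd47, was at 34.2 FPKM in knockout cells at 24 h against 53.0 FPKM at 0 h, and at 37.1 FPKM in WT cells at 24 h against 51.0 FPKM at 0 h. The ratio of Sirpa to Cd47 in FPKM was 2.94 in knockout cells at 24 h, 7.23 in knockout cells at 0 h, 8.42 in WT cells at 24 h and 8.85 in WT cells at 0 h.

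The knockout was next set against WT at each time. At 24 h, 1 of the 10 receptors was 2-fold lower, namely Sirpa at 100.5 FPKM in knockout cells against 312 FPKM in WT cells (log2 −1.63), and none was higher. Among all genes 0.619% were 2-fold lower and 0.832% higher in that comparison, and 8 of the 10 receptors were kept in it. Siglec1 came next, at 13.6 FPKM in knockout cells against 28.1 FPKM in WT cells, a log2 difference of −0.997, just short of the line. Lair1 was at 9.33 FPKM in knockout cells against 14.6 FPKM in WT cells (−0.59). The others lay between −0.20 and 0.42. Siglece and Cd33, the receptors not kept, were under 1 FPKM in both genotypes at 24 h, where a 2-fold difference cannot appear on this scale. The median of the 10 was 0.01, and that of all genes kept was −0.05.

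At 0 h none of the 10 was 2-fold different between the knockout and WT, where 0.871% of all genes were lower and 0.88% higher. The differences ranged from −0.61 for Siglecf to 0.19 for Cd300a, with a median of −0.11 against −0.05 over all genes kept. Cd200r1 was at 47.5 FPKM in knockout cells against 61.2 FPKM in WT cells (−0.36), Sirpa at 383 FPKM in knockout cells against 452 FPKM in WT cells (−0.24), and Siglec1 at 90.8 FPKM in knockout cells against 93.3 FPKM in WT cells (−0.04). Siglecf, at 0.600 FPKM in knockout cells against 1.44 FPKM in WT cells, passed 2-fold lower with a pseudocount of 0.1 (−1.14). The differences that mark the knockout 24 h library for Sirpa and Siglec1 were not seen at 0 h.

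**Figure D3:**
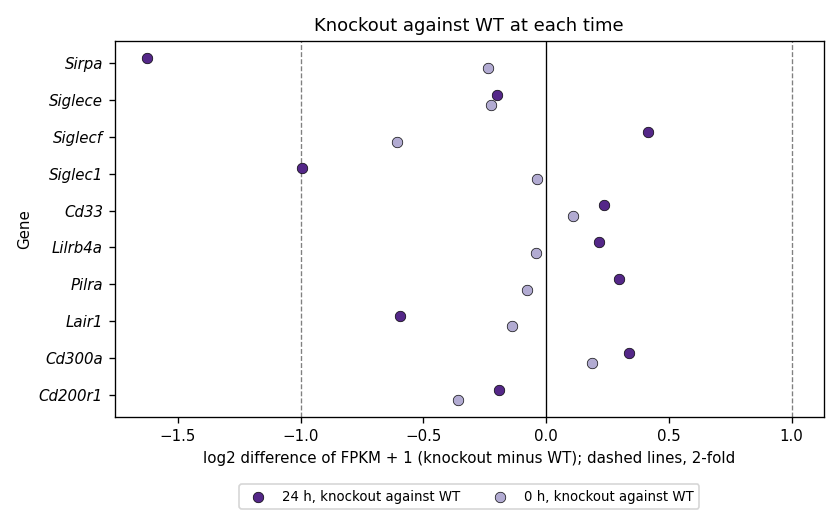
Log2 difference of FPKM + 1 between knockout and WT for each receptor gene, with the 24 h point above the 0 h point and dashed lines at 2-fold. Sirpa at 24 h (−1.63) is the only point past 2-fold, with Siglec1 at 24 h on the line, and all 0 h points lie between −0.61 and 0.19.

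Subtracting the response of WT cells from that of knockout cells left a difference of 2-fold or more for Sirpa (log2 −1.39) and Siglecf (1.02), where 1.16% of all genes were lower and 1.27% higher. It was −0.96 for Siglec1, −0.45 for Lair1 and 0.38 for Pilra, and between 0.02 and 0.26 for the other 5. Siglecf passed through its low values, and with a pseudocount of 5 its difference was 0.35.

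The genes nearest to Sirpa in pattern were sought among 4392 other protein-coding genes at 10 FPKM or more in some library. The measure was the distance over the 4 libraries of log2(FPKM + 1) after each gene's own mean was removed. Ttyh3 was nearest (distance 0.20), followed by Itgam (0.41) and Gcnt1 (0.48). Itgam, which encodes the integrin CD11b, was at 31.1 FPKM in knockout cells at 24 h against 109.6 FPKM at 0 h, and at 66.7 FPKM in WT cells at 24 h against 123.6 FPKM at 0 h. Genes low in 1 library alone were counted after the Sirpa values were seen. In the knockout 24 h library, 7 of 4393 genes were at most 50% of the lowest other library while the others stayed within 1.5-fold. The same count was 7 for the knockout 0 h library, 7 for WT 24 h and 8 for WT 0 h, so such genes were as frequent in each library.

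**Figure D4:**
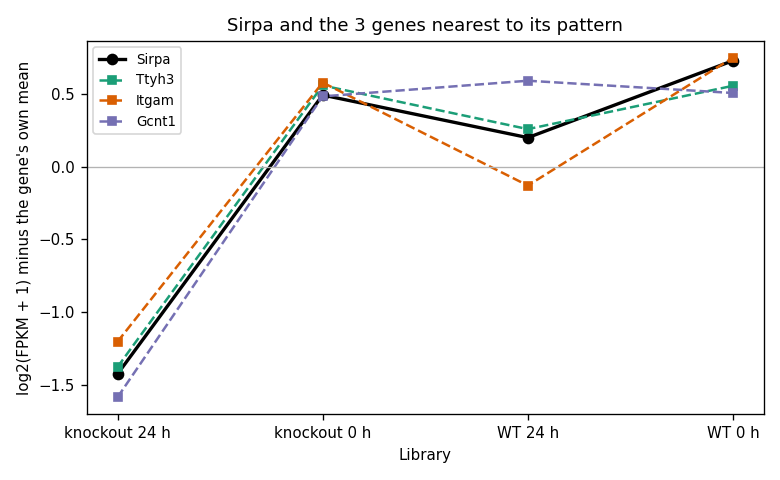
Profiles of Sirpa and its 3 nearest genes, as log2(FPKM + 1) minus each gene's own mean, over the knockout 24 h, knockout 0 h, WT 24 h and WT 0 h libraries, with lines drawn only to join the points of a gene. All 4 genes are lowest in the knockout 24 h library, and Itgam differs from Sirpa by being lower in WT at 24 h than at 0 h by a wider gap.

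For the other receptors the nearest genes were of different kinds. Siglece was nearest to Cd300e (distance 0.18), an activating receptor gene of the Cd300 cluster. It was next nearest to Fpr2 (0.26), a formyl peptide receptor gene, and to Igfbp4 (0.43). Siglec1 was nearest to Ly6e (0.27), Gm5431 (0.30) and Oasl1 (0.41). Ly6e and Oasl1 are interferon-induced genes, and Oasl1 was at 1.43 FPKM in knockout cells at 24 h against 15.4 FPKM at 0 h, and at 2.57 FPKM in WT cells at 24 h against 13.5 FPKM at 0 h. Cd200r1 was nearest to Aldoa (0.01), Ndufa5 (0.02) and Syncrip (0.05), and Lilrb4a to Hsf1 (0.03), Elf4 (0.05) and Mapk6 (0.05).

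Some activating relatives of the paired receptors were also 2-fold lower after IL-4, and none was 2-fold higher. Over all genes, 5.99% were 2-fold lower in the knockout and 6.26% in WT, and 5.16% were higher in the knockout and 4.76% in WT. Of 38 activating receptors and adaptors listed, 32 were in the table. In the knockout 9 were 2-fold lower and 0 higher among 24 kept (median −0.57). In WT 10 were lower and 0 higher among 23 kept (median −0.60). Many of these are low: with a pseudocount of 5 the lower count was 4 in the knockout and 4 in WT, and with a filter at 5 FPKM it was 4 in the knockout and 6 in WT. Pilrb1 and Pilrb2, the activating relatives of Pilra, were low together with it. Pilrb1, 15866 bases from Pilra, was at 1.02 FPKM in knockout cells at 24 h against 11.9 FPKM at 0 h, and at 1.12 FPKM in WT cells at 24 h against 12.8 FPKM at 0 h. Pilrb2 had log2 differences of −2.57 in the knockout and −2.47 in WT. The ratio of Pilra to Pilrb1 in FPKM was 1.82 in knockout cells at 24 h, 0.966 in knockout cells at 0 h, 1.18 in WT cells at 24 h and 0.958 in WT cells at 0 h.

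The Sirpb1 genes, activating relatives of Sirpa, were 2-fold lower in both genotypes. The log2 differences of Sirpb1b were −1.68 in the knockout and −2.05 in WT, those of Sirpb1c −1.74 in the knockout and −1.69 in WT, and those of Sirpb1a −1.65 in the knockout and −1.35 in WT. At 24 h all 3 were under 1 FPKM in both genotypes. At such levels a 2-fold lower value in the knockout could not appear on the FPKM + 1 scale, so they cannot be compared with Sirpa between genotypes at 24 h. The Pilrb and Sirpb1 genes are close copies of one another, and reads may have been split among them.

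The Cd300 relatives went separate ways. Cd300e had log2 differences of −3.58 in the knockout and −3.64 in WT. Cd300lb, 18127 bases from Cd300a, was at 213 FPKM in knockout cells at 24 h against 121 FPKM at 0 h, and at 229.8 FPKM in WT cells at 24 h against 132 FPKM at 0 h. Cd300ld was at 187 FPKM in knockout cells at 24 h against 96.7 FPKM at 0 h, and at 253 FPKM in WT cells at 24 h against 137 FPKM at 0 h. The ratio of Cd300a to Cd300lb in FPKM was therefore 0.313 in knockout cells at 24 h, 1.11 in knockout cells at 0 h, 0.228 in WT cells at 24 h and 0.885 in WT cells at 0 h. Tyrobp, which encodes DAP12, was within 2-fold in both genotypes, at −0.18 in the knockout and −0.24 in WT, and the Cd200r1 relative Cd200r4 was at −0.17 in the knockout and 0.05 in WT. Pira2, an activating relative of Pirb, was 2-fold lower in the knockout (−1.30) and in WT (−1.72), and Cd300ld2 in WT (−1.01).

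**Figure D5:**
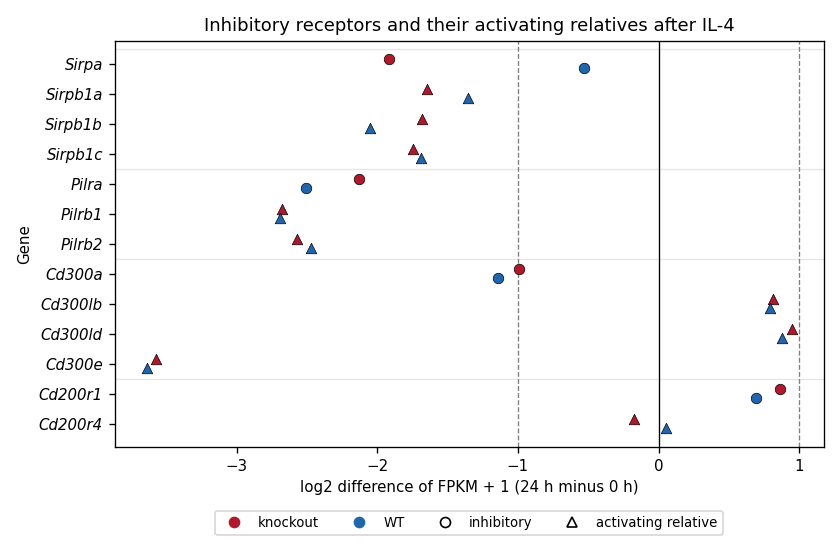
Log2 difference of FPKM + 1 between 24 h and 0 h for inhibitory receptor genes (circles) and activating relatives (triangles), with knockout points above WT points and dashed lines at 2-fold. The Pilra and Pilrb genes lie together between −2.69 and −2.13, while Cd300a at −0.99 and −1.14 lies apart from Cd300lb, Cd300ld and Cd300e.

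Other inhibitory receptors of myeloid cells were compared as a list of 33 names, of which 27 were in the table. In the knockout 4 were 2-fold lower and 1 higher among 15 kept (median −0.31), and in WT 4 were lower and 0 higher among 16 kept (median −0.32). For all genes the shares were 5.99% lower and 5.16% higher in the knockout, and 6.26% lower and 4.76% higher in WT. Pirb, which encodes an ITIM receptor for MHC class I, was at 49.7 FPKM in knockout cells at 24 h against 119.7 FPKM at 0 h, and at 41.7 FPKM in WT cells at 24 h against 110.8 FPKM at 0 h. Clec12a, an ITIM-bearing lectin that senses uric acid crystals, had log2 differences of −1.62 in the knockout and −1.64 in WT. Cd300lf was at −1.68 in the knockout and −1.33 in WT. Milr1, the allergin-1 gene, was at −1.25 in the knockout and −0.32 in WT, and at 24 h stood at 10.9 FPKM in knockout cells against 22.3 FPKM in WT cells (−0.97). The higher one, Lag3, at 3.08 FPKM in knockout cells at 24 h against 0.371 FPKM at 0 h, and the fourth lower one in WT, Klra2, were named after their values were seen. None of this list was 2-fold different between genotypes at 24 h or at 0 h, where at most 0.88% of all genes were in either direction.

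Effectors downstream of ITIMs split in both directions. The all-gene shares were 5.16% higher and 5.99% lower in the knockout, and 4.76% higher and 6.26% lower in WT. Of 31 listed effectors, 28 were kept. In the knockout 3 were 2-fold higher and 5 lower (median 0.05), and in WT 4 were higher and 4 lower (median −0.37). The phosphatase genes themselves were within 2-fold. Ptpn6, which encodes SHP-1, was at 70.2 FPKM in knockout cells at 24 h against 129.7 FPKM at 0 h, and at 65.3 FPKM in WT cells at 24 h against 115 FPKM at 0 h. Inpp5d, which encodes SHIP-1, had log2 differences of −0.88 in the knockout and −0.84 in WT. Ptpn11, which encodes SHP-2, had 0.27 in the knockout and 0.09 in WT. Fyn, which encodes a Src-family kinase, had log2 differences of 2.22 in the knockout and 2.07 in WT. Dok3 was at −2.83 in the knockout and −2.41 in WT, Fyb, an adaptor of SKAP2, at −1.96 in the knockout and −2.08 in WT, and the ubiquitin ligase gene Cblb at 1.40 in the knockout and 1.97 in WT. Lyn, lower in both genotypes, Ptk2b, lower in the knockout, and Rasa1, higher in WT, also passed 2-fold and were named after their values were seen. Between genotypes at 24 h, where 0.832% of all genes were higher, 1 of the list was 2-fold higher. This was Grb2, at 101.6 FPKM in knockout cells against 50.3 FPKM in WT cells, named after its values were seen. It lies on the 2-fold line, and with a pseudocount of 5 the count was 0.

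Among 23 listed ligands and partner signals, 22 were in the table. In the knockout 2 were 2-fold higher and 0 lower among 16 kept (median −0.45), and in WT 2 were higher and 4 lower among 17 kept (median −0.45). Of all genes, 5.16% were higher and 5.99% lower in the knockout, and 4.76% higher and 6.26% lower in WT. The 4 lower in WT were Cd200, Pianp, Apoe and Col4a1, the last named after its values were seen. Besides Fn1, the higher one was Calr, which encodes calreticulin, at 558.8 FPKM in knockout cells at 24 h against 210.6 FPKM at 0 h, and at 606.7 FPKM in WT cells at 24 h against 213.8 FPKM at 0 h. Apoe, whose protein binds LILRB4 in humans, was at 3381 FPKM in knockout cells at 24 h against 4176 FPKM at 0 h, and at 2125 FPKM in WT cells at 24 h against 4407 FPKM at 0 h. Pianp, a PILRα ligand gene, was 2-fold higher in the knockout at 24 h, at 12.1 FPKM in knockout cells against 4.06 FPKM in WT cells (1.37), and at 0 h stood at 20.5 FPKM in knockout cells against 10.4 FPKM in WT cells (0.92). At 24 h, 0.832% of all genes were 2-fold higher in the knockout. With a pseudocount of 5, 0 of the list were 2-fold higher in the knockout at 24 h.

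Neutrophil markers were lower at 24 h than at 0 h, by differing amounts. The summed level of 8 neutrophil markers was 667 FPKM in knockout cells at 24 h against 2069 FPKM at 0 h, and 1021 FPKM in WT cells at 24 h against 3248 FPKM at 0 h. S100a9 was the highest of these, at 377 FPKM in knockout cells at 24 h against 1084 FPKM at 0 h. In WT cells it was at 623 FPKM at 24 h against 1769 FPKM at 0 h. Mpo changed little, with log2 differences of −0.17 in the knockout and −0.34 in WT, and Ly6g was at most 0.651 FPKM in any library. Siglece and Pilra are also expressed by neutrophils and monocytes, and the part of such cells in the 24 h values was not tested. The summed level of the 8 macrophage markers was 6414 FPKM in knockout cells at 24 h against 15479 FPKM at 0 h, and 6401 FPKM in WT cells at 24 h against 18542 FPKM at 0 h. Of the 8, 5 were 2-fold lower in the knockout (5.99% of all genes) and 4 in WT (6.26% of all genes). Most of the sum was Lyz2, and Cd68 was between 965 and 1009 FPKM in every library.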

How the data were processed

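RNA-seq was done on 4 libraries, 1 per group. The deposited values are FPKM per Ensembl gene; STAR, StringTie and GRCm38 (mm10) are named per the submitters' processing notes, and the sources used here do not state annotation release, tool versions or strandedness. The table names no unit, and its column totals, from 338704 to 353093, differ between libraries as TPM would not. Symbols were matched for 52403 of 52550 genes with GENCODE M21 and summed by symbol (52476 names). Differences are log2 ratios of FPKM + 1, computed with Python 3.11.15 and pandas 2.3.3. A gene was kept at 1 FPKM in at least 1 library compared, and counted at a log2 size of 1. There were 5 comparisons and no test. The code that makes the calls was tried on made-up data with known folds. How often the spread between cultures alone gives a 2-fold call was not tested. Fragments were estimated from the most common product of FPKM and length, sought between 30 and 80, in genes of 1 exon and 400 bases or more, and multiplied by the longest annotated transcript, so they are approximate and cover counting error only. Receptors, lists (5) and marker lists (9) were chosen with earlier results of these data known, and motifs after the values were seen. From each list up to 6 genes were named, past 2-fold and at 5 FPKM or more, besides Cd47, Cd200, Ptpn6, Ptpn11, Inpp5d, Tyrobp, Dok1, Dok2 and Ogt. Other list genes, such as the Sirpb1 genes under 5 FPKM, Cd300lb, Cd300ld, Cd200r4 and Gne, were chosen after their values were seen. Patterns were compared for 5 receptors, naming 3 genes each. Some genes of these lists are not reported here.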

Additional observations from a re-analysis of the deposited data

Results flagged for a closer look

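For 4 receptors a contrast had opposite signs in the groups compared. The share of all genes with such a change of sign was not counted, and differences near 0 can take either sign. With 1 library per group the difference was not tested. Siglecf differed in the sign of its IL-4 response (log2 0.64 in the knockout and −0.39 in WT) and of its knockout difference (0.42 at 24 h and −0.61 at 0 h), with a knockout response minus WT response of 1.02. Lair1 differed in the sign of its response (−0.26 in the knockout and 0.20 in WT), a difference of −0.45. Pilra differed in the sign of its knockout difference (0.30 at 24 h and −0.08 at 0 h), with 0.38 between responses. Lilrb4a did so too (0.22 at 24 h and −0.04 at 0 h), with 0.26 between responses.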

How the results depend on the processing

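The counts of receptors past 2-fold were recomputed under 6 alternatives. After IL-4 in the knockout, 6 were lower with a pseudocount of 0.1, with median-ratio rescaling or with equal totals, as Cd300a passed 2-fold. With a pseudocount of 5 or a filter at 5 FPKM, 4 were lower in the knockout and 4 in WT, as Cd33 dropped out. With a pseudocount of 0.1, 1 receptor (Siglecf) was higher after IL-4 in the knockout, 2 (Sirpa and Siglec1) were lower in the knockout than in WT at 24 h, 1 (Siglecf) was lower in the knockout than in WT at 0 h, and 2 (Sirpa and Siglec1) had a lower response in the knockout than in WT. With all libraries scaled to an equal total, 2 (Sirpa and Siglec1) were lower in the knockout than in WT at 24 h. That scaling multiplied the values of each library by 2.83 to 2.95 and left the pseudocount and the filter at 1. Both were thus smaller beside the values, so this setting is not a change of totals alone. With a pseudocount of 5 or a filter at 5 FPKM, 0 had a higher response in the knockout, since Siglecf dropped out. No receptor difference past 2-fold changed sign under these alternatives.

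Counts over all genes moved by more than 1.5 times in places. In knockout cells after IL-4 the counts were 597 up and 693 down as reported, 272 and 320 with a pseudocount of 5, 963 and 1068 with 0.1, and 948 and 1262 at equal totals. In WT these were 556 and 732 as reported, 253 and 304 with 5, 845 and 1126 with 0.1, and 852 and 1299 at equal totals. With median-ratio rescaling they were 558 and 778 in the knockout, and 497 and 800 in WT. For the knockout against WT at 24 h they were 94 and 70 as reported, 23 and 16 with 5, 209 and 179 with 0.1, 55 and 38 with the filter at 5 FPKM, and 285 and 274 at equal totals. At 0 h they were 101 and 100 as reported, 23 and 20 with 5, 202 and 236 with 0.1, 52 and 54 with the filter, and 300 and 341 at equal totals. For the difference between responses they were 152 and 139 as reported, 36 and 36 with 5, 372 and 290 with 0.1, 77 and 64 with the filter, and 482 and 438 at equal totals.

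Counts in the companion lists moved too. With a pseudocount of 5, the lower count after IL-4 in WT was 2 for other inhibitory receptors and 1 for ligands, each 4 as reported, and the higher count of other inhibitory receptors in the knockout was 0, against 1. With the filter at 5 FPKM that last count was also 0, and the ligands lower in WT were 2. With equal totals 8 other inhibitory receptors were lower in WT, and with either a pseudocount of 0.1 or equal totals 2 ligands were lower in the knockout, against 0. With median-ratio rescaling 2 ligands were higher in the knockout than in WT at 24 h, against 1. The paired activating receptors, Grb2 and Pianp are given beside their results, and the remaining moved list counts changed by at most 2 genes.

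List medians were not recomputed for the difference between responses. No paired analysis was possible because each group has 1 library. Depth limits Siglece, Cd33, Pilra and Siglecf most, each under 100 estimated fragments in both 24 h libraries.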
